A study of Mus musculus with 24 samples.

Results

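The genes described here are 8 genes that have been used to mark reserve stem cells or regenerating epithelium in the intestine, namely Mex3a, Msi1, Prom1, Bmi1, Hopx, Clu, Ly6a and Anxa1. They were taken as a named list and found by symbol among the 45513 genes counted, and all 8 had an entry. Their levels were read in 24 bulk RNA-seq libraries of tdTom+ EpCAM+ cells sorted from adult mouse intestine. The 4 groups of 6 libraries were WT and 9S/T-A cells from the proximal small intestine (SI) and WT and 9S/T-A cells from the colon.

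WT mice were homozygous for Atoh1(WT)CreERT2, an Atoh1 allele with the tamoxifen-inducible recombinase CreERT2 placed after the intact gene, and 9S/T-A mice for Atoh1(9S/T-A)CreERT2, the same construct in which serine and threonine phosphorylation sites of ATOH1 were changed to alanine. All mice carried a Rosa26 tdTomato reporter, were C57BL/6 males or females, and received a single 3 mg dose of tamoxifen the day before sorting. The sorted pool therefore held cells in which the Atoh1 locus was active when tamoxifen was given, and their recent progeny, and no group was sorted for a stem cell. The labels share replicate numbers 2 to 7 between all groups without saying whether a number is 1 mouse, so p-values measure the spread between these libraries.

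Intestinal epithelium is renewed from crypt base stem cells that carry Lgr5, and a reserve of slowly dividing crypt cells, together with secretory precursors that return to the stem cell state, has been described as a backup after injury. Regenerating epithelium takes on a fetal-like state in which Ly6a, Anxa1 and Clu are switched on, in part through the YAP arm of the Hippo pathway. Atoh1, a basic helix-loop-helix factor that binds E-box DNA, commits crypt progenitors to the secretory lineage, to which goblet, Paneth, enteroendocrine and tuft cells are usually assigned.

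Library totals ran from 36 to 65.8 M counts. Epcam, the surface protein used for sorting, lay between 770 and 1111 CPM in all libraries. CPM is the count scaled to the library's depth (counts per M) after TMM scaling of all 24 libraries together. Atoh1 was read at 57.7 to 124 CPM and Muc2, the main goblet mucin, at 10292 CPM or more in every library. Both alleles are read as Atoh1, and its log2 fold change of 9S/T-A over WT was -0.30 (SE 0.118, adjusted p = 0.23 in edgeR) in SI and -0.24 (SE 0.11, adjusted p = 0.558 in edgeR) in colon. Number 7 was the library least like its group in all 4 groups, with a mean correlation with the other 5 of 0.960 to 0.971 against 0.975 to 0.987 for the other libraries, and results that turn on it are also given without it.

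RefSeq promoter windows of 300 bases, 250 before and 50 after the transcript start in build GRCm38.p6, were found for 5 of the 8 genes, in 7 windows. Those of the pair that was called lower in 9S/T-A SI, Mex3a and Prom1, and that of Anxa1, the gene with the largest tissue difference, are printed here 5′ to 3′ on the gene's strand. They were searched on both strands for the E-boxes CAGCTG and CAGATG, for CATTCC, the core letters bound by TEAD factors, and for the core of the interferon-stimulated response element (ISRE), 2 GAAA blocks with 2 bases of any kind between them. Capitals mark matches.
Mex3a, chr3:88531696-88531995, plus strand: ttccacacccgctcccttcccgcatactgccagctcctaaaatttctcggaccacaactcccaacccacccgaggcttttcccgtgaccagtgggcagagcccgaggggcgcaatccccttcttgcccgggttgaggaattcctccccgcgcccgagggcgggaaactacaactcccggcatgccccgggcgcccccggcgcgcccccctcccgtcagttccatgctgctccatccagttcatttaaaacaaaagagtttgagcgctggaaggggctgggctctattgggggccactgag
Prom1, chr5:44101687-44101986, minus strand: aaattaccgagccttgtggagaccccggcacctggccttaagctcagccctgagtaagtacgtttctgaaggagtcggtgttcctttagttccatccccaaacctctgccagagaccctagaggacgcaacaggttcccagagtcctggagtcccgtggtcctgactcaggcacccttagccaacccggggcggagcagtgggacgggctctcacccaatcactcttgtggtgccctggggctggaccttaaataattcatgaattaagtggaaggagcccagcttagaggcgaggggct
Anxa1, chr19:20390622-20390921, minus strand: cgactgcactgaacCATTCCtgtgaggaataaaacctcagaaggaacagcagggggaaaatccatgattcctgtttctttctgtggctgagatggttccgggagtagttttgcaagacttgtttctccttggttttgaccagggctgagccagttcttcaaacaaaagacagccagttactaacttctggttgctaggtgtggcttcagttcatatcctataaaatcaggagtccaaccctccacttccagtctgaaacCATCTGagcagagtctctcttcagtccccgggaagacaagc
None of the 4 letter strings was in the Mex3a window or in either Prom1 window, while the Anxa1 window held CATTCC at bases -236 to -231 and CAGATG, as CATCTG on the gene's strand, at bases 10 to 15, counted from 1 at the first of the 50 bases and from -1 backwards. Elsewhere the 1 Bmi1 window held CATTCC and 1 of the 2 Hopx windows held CAGCTG, and no window of these genes held the ISRE core. Over all 32851 windows of this length, 16.3% held CAGCTG, 17.2% CAGATG, 14.7% CATTCC and 3.44% the ISRE core. The windows of Mex3a and Prom1 had a G+C content of 63% and 57% (50.3% in the second Prom1 window), and that of Anxa1 47.3%, beside a median of 52.7% over all windows. A match or its lack describes the letters in the window only. The Mex3a window ends at base 88531995, upstream of the counted gene's start at 88532395, so it surrounds a RefSeq start outside the gene as counted.

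The genes differed widely in level. Per kb of counted exon, which allows genes to be compared, Hopx stood at 36.7 CPM per kb in WT SI and Prom1 at 29.1. Bmi1 followed at 3.53, Ly6a and Msi1 at 2.63 each and Mex3a at 0.702. Clu, at 0.258 CPM per kb, and Anxa1, at 0.0346 CPM per kb, were the lowest. In WT colon, Hopx at 29.5 and Prom1 at 21.9 CPM per kb again led, but Anxa1 at 12.9 and Ly6a at 11.4 stood next, and Msi1 at 0.398 was lowest. Anxa1 was thus the lowest of the set in WT SI and the third highest in WT colon, as the plot of length-scaled levels shows.

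**Figure D1:**
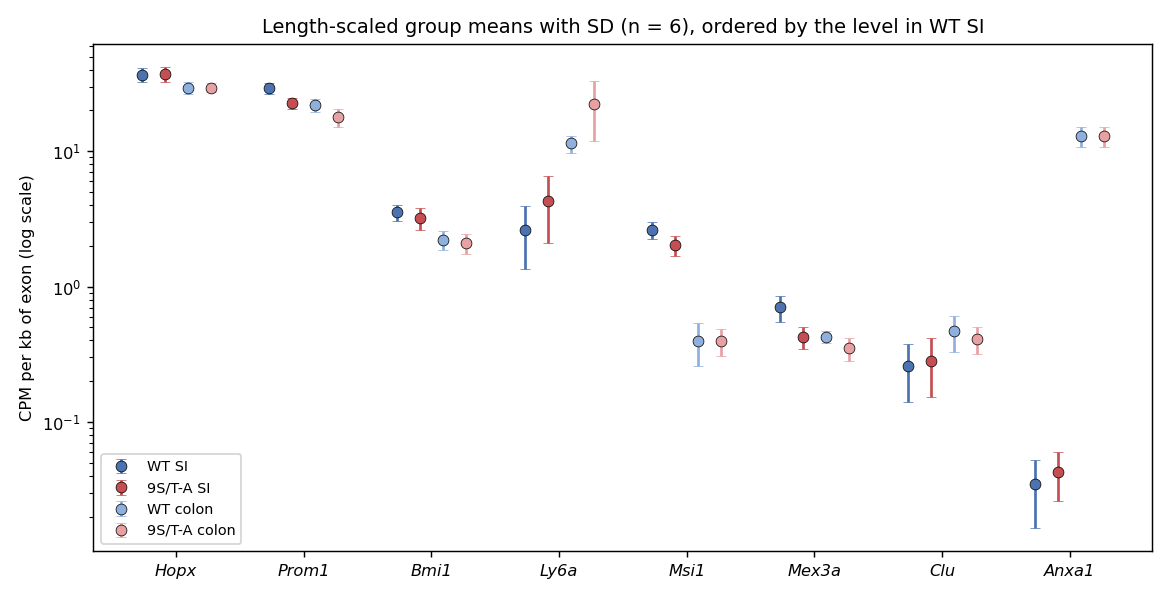
Group means of the 8 genes in CPM per kb of exon on a log scale, with SD over 6 libraries per group; blue marks WT and red 9S/T-A, darker shades SI and lighter shades colon. Anxa1 sits at 0.0346 CPM per kb in WT SI and at 12.9 in WT colon, and Msi1 falls from 2.63 to 0.398, while the 4 Hopx means lie between 29.5 and 37.2.

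The first question was whether the phosphosite mutation changed these genes in SI cells. Mex3a and Prom1 were lower in 9S/T-A SI than in WT SI, by 1.65-fold and 1.28-fold, and none of the 8 genes was higher past the threshold. Of the 7 genes with enough counts to be tested, 2 were called at an edgeR adjusted p under 0.05, both lower, beside 1.94% of all 16236 genes called in either direction and 0.905% called lower. Msi1 and Ly6a also had an unadjusted p under 0.05, lower and higher, and missed the threshold after adjustment. Of all 16236 genes tested, 2556 had an unadjusted p under 0.05 in edgeR, the background for every such count in SI below. The calls of Mex3a and Prom1 rest on small margins: each was lost in most of the fits that left out 1 library, and both were lost without number 7 in both genotypes, at edgeR adjusted p = 0.0542 for Mex3a and 0.0816 for Prom1, with log2 fold changes of -0.79 and -0.33. Of all genes called, 168 were higher and 147 lower in 9S/T-A SI, and 78 and 190 when libraries were scaled by their plain totals, which shifted the median change of all genes by -0.11 on the log2 scale.

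Mex3a (ENSMUSG00000074480, chr3:88532395-88541396, plus strand, GRCm38) encodes an RNA-binding protein that marks a slowly dividing subset of crypt base cells. In WT SI it was read at 2.93 CPM at the lowest, 4.04 at the median and 5.57 at the highest, and in 9S/T-A SI at 1.85, 2.41 and 2.97. The groups overlapped only where the lowest WT library lay just below the highest 9S/T-A ones, and in each of the 6 replicate numbers the 9S/T-A library was the lower. WT and 9S/T-A are different mice, so this and later counts by number between genotypes set libraries of the same label side by side, not pairs. The means were 4.05 ± 0.885 CPM in WT and 2.46 ± 0.448 in 9S/T-A (SD, n = 6), or a fitted log2 change of -0.72 (SE 0.169, adjusted p = 0.0426 in edgeR). These rest on few reads, 122 to 254 counts per WT library and 80 to 151 per 9S/T-A library. With 1 library left out, the log2 fold change ran from -0.80 to -0.61 and the gene was called in 3 of 12 fits, with adjusted p-values of 0.0224 to 0.102. In bulk libraries, fewer cells that carry a transcript and less of it per cell cannot be told apart.

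Prom1 (ENSMUSG00000029086, chr5:43993620-44102032, minus strand), also known as CD133, encodes a membrane glycoprotein of plasma membrane protrusions that has been used as a stem and progenitor marker in the small intestine. In WT SI its lowest, median and highest values were 187, 203 and 235 CPM, and in 9S/T-A SI 148, 156 and 182. The groups did not overlap, which held for 1 of the 7 genes tested, beside 2.07% of all genes tested. Means of 209 ± 19 and 163 ± 15.4 CPM (SD, n = 6) gave a fitted log2 change of -0.36 (SE 0.082, adjusted p = 0.0361 in edgeR). Prom1 was called in 5 of 12 fits with 1 library left out, in which its log2 fold change ran from -0.39 to -0.33 and its adjusted p from 0.0336 to 0.0952. In DESeq2, both Prom1 (adjusted p = 0.00431) and Mex3a (adjusted p = 0.00336) were called lower. DESeq2 called 776 of the 19015 genes it tested in SI, a larger share than the 315 of 16236 in edgeR.

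Msi1 (ENSMUSG00000054256, chr5:115429599-115455698, plus strand) encodes Musashi-1, an RNA-binding protein of stem and progenitor cells. It was read at 11.6, 15.9 and 17.7 CPM (lowest, median, highest) in WT SI and at 9.86, 11.4 and 14.7 in 9S/T-A SI. The ranges overlapped, and the 9S/T-A library was lower in 5 of 6 numbers. The log2 fold change was -0.37 (SE 0.127, adjusted p = 0.166 in edgeR). Number 2 ran the other way, with 11.6 CPM in WT and 14.7 in 9S/T-A, and without number 2 in both genotypes, an alternative that takes out the pair opposed to the difference, the value was -0.51 (SE 0.111, adjusted p = 0.0251 in edgeR). With 1 library left out Msi1 was called in 0 of 12 fits, the lowest edgeR adjusted p being 0.0616.

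Bmi1 (ENSMUSG00000026739, chr2:18677018-18686629, plus strand), a subunit of Polycomb repressive complex 1 (PRC1), and Hopx (ENSMUSG00000059325, chr5:77086988-77115121, minus strand), an atypical homeodomain protein that does not bind DNA, are classic markers of the reserve position above the crypt base. Bmi1 averaged 14 ± 1.97 CPM in WT and 12.8 ± 2.37 in 9S/T-A (SD, n = 6), or a fitted log2 change of -0.13 (SE 0.125, adjusted p = 0.649 in edgeR). Hopx averaged 55.7 ± 6.52 and 56.4 ± 7.02 CPM, or a fitted log2 change of 0.02 (SE 0.0968, adjusted p = 0.958 in edgeR). Neither difference exceeded the spread between libraries, and the sign of the Hopx value turned with upper-quartile scaling (-0.0011) and with plain totals (-0.10).

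Among the regeneration genes, Clu (ENSMUSG00000022037, chr14:65968483-65981548, plus strand) encodes clusterin, a secreted chaperone that marks revival stem cells after injury. It was low in SI, between 0.395 and 1.51 CPM in WT and 0.463 and 1.76 in 9S/T-A, with a fitted log2 change of 0.14 (SE 0.34, adjusted p = 0.876 in edgeR). Anxa1 (ENSMUSG00000024659, chr19:20373428-20390944, minus strand), a calcium-dependent phospholipid-binding annexin that limits inflammation, had 1 to 6 counts per WT SI library and 2 to 7 per 9S/T-A SI library, too few to pass the low-count filter of the edgeR test. Its sum over 6 libraries was 23 counts in WT and 28 in 9S/T-A. Without the filter its log2 fold change was 0.26 (SE 0.507, adjusted p = 0.852 in edgeR), and DESeq2 gave 0.27 (adjusted p = 0.89).

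Ly6a (ENSMUSG00000075602, chr15:74994877-74998031, minus strand) encodes Sca-1, a GPI-anchored surface protein that is induced by interferon and marks fetal-like repair epithelium. In WT SI it was read at 1.67, 2.51 and 5.78 CPM (lowest, median, highest) and in 9S/T-A SI at 2.75, 4.52 and 10.2. The highest value was that of number 5 in 9S/T-A, and the ranges overlapped. The log2 fold change of 0.72 (SE 0.335) missed the threshold, with edgeR adjusted p = 0.318. It was 0.42 (edgeR adjusted p = 0.614) without 9S/T-A SI replicate 5 and 1.05 (edgeR adjusted p = 0.14) without number 7 in both genotypes, and with 1 library left out it ran from 0.42 to 0.97 and was called in 0 of 12 fits. Since Ly6 genes resemble each other in sequence, reads shared with a paralog could be split or lost in counting, and the values of Ly6a are uncertain to that extent.

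**Figure D2:**
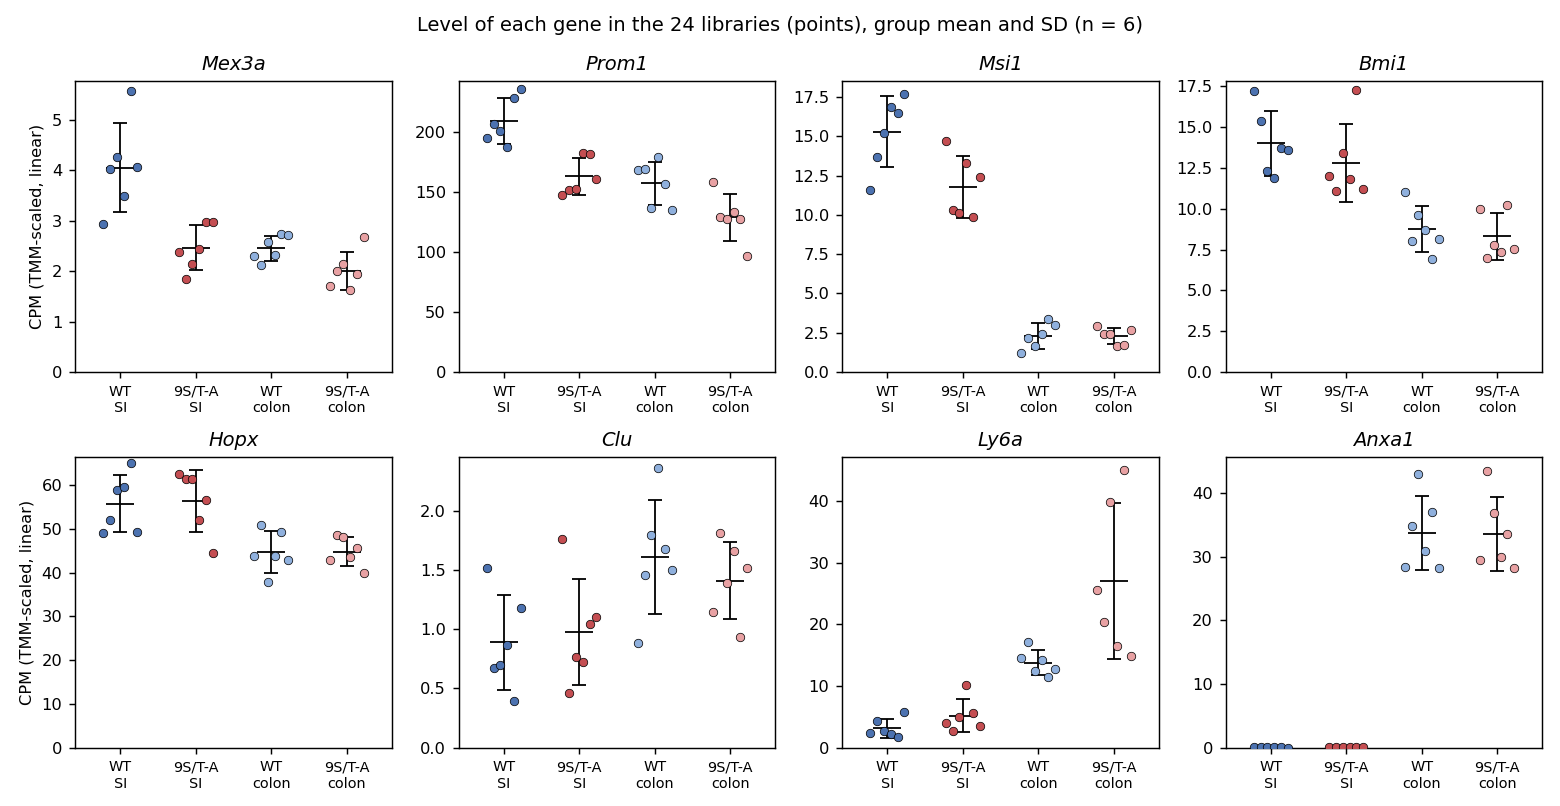
CPM of each of the 8 genes in every library (points, linear axes from 0), with the group mean and SD over 6 libraries (bars). Prom1 in SI runs from 187 to 235 CPM in WT and 148 to 182 in 9S/T-A, Ly6a reaches 45 CPM in one 9S/T-A colon library, and Anxa1 lies at or below 0.163 CPM throughout SI.

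Marker lists of other cells also differed between the genotypes in SI. Of 10 tuft cell markers tested, 10 had a negative log2 fold change and 2 were called lower, Pou2f3 (the tuft cell master regulator) at -1.18 and Gfi1b at -1.76, and the summed level of the list ran from 79.4 to 177 CPM in WT and 28 to 155 in 9S/T-A. Of 11 Paneth cell markers, 9 were negative and 5 called lower, with sums of 62366 to 104906 CPM in WT and 50241 to 78551 in 9S/T-A. Of 15 cell cycle genes, 15 were negative, with 0 called in edgeR or DESeq2 and 10 under an unadjusted p of 0.05 (median log2 fold change -0.40, all genes 0.00), with sums of 500 to 709 CPM and 365 to 611. The 16 active stem cell genes were negative in 14 cases, with 1 call, Sox4 at -0.56, and Lgr5 at -0.16 (SE 0.152, adjusted p = 0.645 in edgeR). The part of these lists in the values of Mex3a and Prom1 was not tested.

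Markers of leukocytes, stroma and endothelium were low beside Epcam. Without Lyz2, which is close in sequence to the Paneth gene Lyz1 and was read at 2318 ± 362 CPM (SD, n = 6) in WT SI, the other 16 leukocyte markers summed to 29.6 to 52.9 CPM in SI of WT and 19.9 to 59.2 in SI of 9S/T-A, and to 4.4 to 8.72 CPM in colon. S100a8 and S100a9 were at 0 in 3 of the 4 groups, while Cd8a averaged 7.26 CPM and Cd3g 4.62 CPM in WT SI. The 17 markers of stroma and endothelium summed to 12.3 to 24.7 CPM over all libraries, with Col3a1 and Lum at 0 in each. Vim averaged 10.7 CPM in WT SI and Pdgfrb 10.7 CPM in WT colon. Some of these markers were thus above Ly6a and Clu in WT SI, which averaged 3.17 and 0.888 CPM. Leukocytes and stroma also express Ly6a, Clu and Anxa1, and the part of these traces in the values of those genes was not tested.

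The same question was then asked of colon. No gene of the 8 was called in edgeR between 9S/T-A colon and WT colon, beside 0.318% of all 16997 genes tested. An unadjusted p under 0.05 was seen for 2 of the 8, Ly6a and Prom1. It was seen for 1497 of the 16997 genes, the background for every such count in colon below. For 0 of the 8 the groups did not overlap, beside 0.906% of all genes tested. In DESeq2, which called 1.22% of the genes it tested, Ly6a was called and the other 7 were not. Ly6a had the largest difference of the set, and Mex3a and Prom1 were lower in the 9S/T-A library in 6 of 6 replicate numbers, as they were in SI. Bmi1 and Hopx were also lower in 5 of 6 numbers in colon, at log2 fold changes of -0.05 and 0.02. Such counts of unpaired libraries thus did not follow the size of the change.

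Ly6a was read in WT colon at 11.5, 13.6 and 17.1 CPM (lowest, median, highest) and in 9S/T-A colon at 14.8, 23 and 45. WT libraries lay close together while 9S/T-A libraries spread over a wide range, with numbers 6 and 4 far above the rest at 45 and 39.8 CPM. In each of the 6 numbers the 9S/T-A library was the higher. The means of 13.8 ± 1.99 and 27 ± 12.6 CPM (SD, n = 6) gave a fitted log2 change of 0.99 (SE 0.245, adjusted p = 0.14 in edgeR), and DESeq2 gave 1.0 (SE 0.241, adjusted p = 0.00579). Without 9S/T-A colon replicate 7, the lowest of its group, the edgeR adjusted p was 0.0485, and without number 7 in both genotypes it was 0.0664, at a log2 fold change of 1.10. Over all 12 fits with 1 library left out the adjusted p ran from 0.0485 to 0.285 with log2 fold changes of 0.78 to 1.11.

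Prom1 averaged 157 ± 18.2 CPM in WT and 129 ± 19.6 in 9S/T-A colon (SD, n = 6). The log2 fold change was -0.27 (SE 0.098, adjusted p = 0.395 in edgeR), lower in all numbers but with overlapping ranges of 135 to 179 and 96.9 to 158 CPM. Mex3a averaged 2.45 ± 0.25 and 2.01 ± 0.377 CPM, or a fitted log2 change of -0.26 (SE 0.144, adjusted p = 0.661 in edgeR). The remaining genes gave smaller values, from -0.18 for Clu (SE 0.22) to 0.02 for Hopx (SE 0.0724), with Bmi1 at -0.05 (SE 0.129), Anxa1 at 0.01 (SE 0.122) and Msi1 at 0.01 (SE 0.238). For Hopx, Anxa1 and Msi1 the sign turned negative when libraries were scaled by plain totals.

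The genes whose levels followed Ly6a most closely are known as interferon-induced genes. Over the 24 libraries, after subtracting each group's mean from log2(CPM + 1), Tap2 and Tap1, the peptide transporter of antigen presentation, had Pearson r of 0.90 each with Ly6a, the highest of 9848 protein-coding genes searched. Libraries share depth and handling, so these are descriptions with no test. In colon, all 21 interferon response genes of a list had a positive log2 fold change in 9S/T-A (median 0.80, all genes 0.00). In edgeR 11 of them had an unadjusted p under 0.05 and 0 were called, and DESeq2 called 0. The list's summed level ran from 179 to 251 CPM in WT and 188 to 524 in 9S/T-A colon, and numbers 6 and 4 of 9S/T-A, the highest for Ly6a, were also the highest for the list at 524 and 460 CPM. In SI the list had 15 of 21 negative values (median -0.16), while Ly6a stood at 0.72. Of the list, 0 were called in edgeR or DESeq2 and 1 had an unadjusted p under 0.05. The list's median sum was the higher one for 9S/T-A SI, 878 CPM (613 to 1088) beside 714 (610 to 1195) for WT. Number 5 of 9S/T-A SI was the highest of its group on both measures, at 10.2 CPM of Ly6a and 1088 of the list. Among WT SI libraries, numbers 7 and 3 led both, with 5.78 and 4.28 CPM of Ly6a and 1195 and 1153 of the list. The match was not complete, as the lowest 9S/T-A SI library was number 3 for Ly6a (2.75) and number 2 for the list (613). The part of the interferon list in the Ly6a values was not tested.

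**Figure D3:**
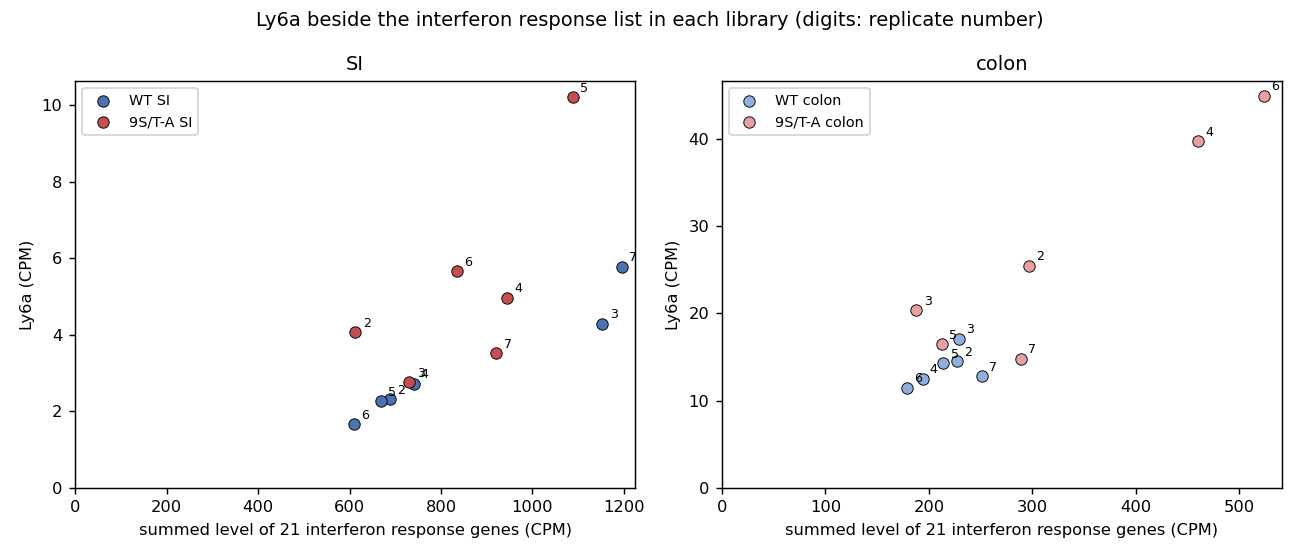
Ly6a in CPM against the summed level of 21 interferon response genes in CPM, 1 point per library with its replicate number, for SI (left) and colon (right), linear axes from 0. In colon, 9S/T-A numbers 4 and 6 stand apart on both axes, at 39.8 and 45 CPM of Ly6a and 460 and 524 CPM of the list, and in SI the list is higher and Ly6a lower than in colon.

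Whether the genotype effect differed between tissues was tested as an interaction over the 24 libraries. None of the 8 genes was called in edgeR, beside 0.412% of all 17953 genes, and DESeq2 called 0 of the 8 as well. An unadjusted p under 0.05 in edgeR was seen for 0 of the 8 and for 1740 of the 17953 genes, the background for such counts of the interaction. Of all genes, 52 were called with a higher and 22 with a lower change in colon than in SI, and 65 and 8 with plain totals. The largest term was that of Mex3a at 0.44 (SE 0.214, adjusted p = 0.521 in edgeR), so its fall in SI was not shown to exceed that in colon. The term was 0.07 (SE 0.138) for Prom1 and 0.25 (SE 0.437) for Ly6a. These errors leave room for differences of the size of the genotype effects themselves.

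**Figure D4:**
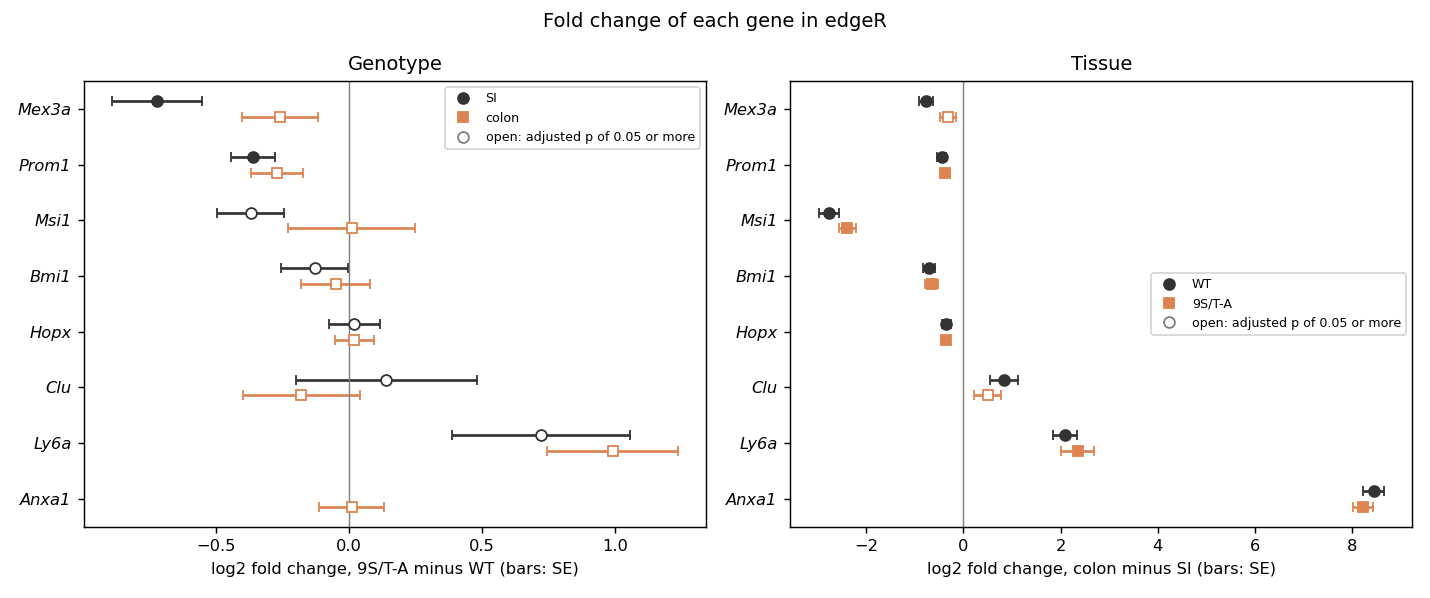
Log2 fold changes of each gene with SE in edgeR, for genotype (left, 9S/T-A minus WT, SI as circles and colon as squares) and tissue (right, colon minus SI, WT as circles and 9S/T-A as squares); filled symbols have an adjusted p under 0.05 and open symbols do not. Mex3a at -0.72 and Prom1 at -0.36 in SI are the filled genotype values, and Anxa1 at 8.44 and 8.21 lies farthest from 0 among the tissue values; Anxa1 in SI fell under the low-count filter and has no genotype symbol.

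The tissues were then compared within each genotype. All 8 genes differed between colon and SI in WT mice, 3 higher and 5 lower in colon, in a comparison where 63.6% of all genes tested were called. In 9S/T-A mice 6 of the 8 were called, 2 higher and 4 lower, beside 60.9%. The groups did not overlap for 6 genes in WT, beside 43.5% of all genes, and for 4 in 9S/T-A, beside 41.1%. Shares near these backgrounds say little of the set, and the sizes for single genes are the result here.

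Scaling bears on the directions of the smaller tissue differences. SI libraries spend many of their counts on a few secretory transcripts. Goblet markers summed to 317083 TMM-scaled CPM or more in SI against 84853 or fewer in colon. These sums are not shares of the counts, and the contrast is smaller by plain totals. The Muc2 mean in WT SI was 27638 CPM by TMM and 22199 by plain totals, and in WT colon it was 12171 and 15750. Scaling by plain totals in place of TMM, an alternative chosen after seeing the data, shifted the median change of all genes by 0.71 in WT and 0.80 in 9S/T-A on the log2 scale. With it, calls went from 5625 higher and 5169 lower to 12241 and 1903 in WT, and from 5576 and 4743 to 12546 and 1653 in 9S/T-A. Every direction given below is relative to the bulk of genes, as TMM sets it.

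Anxa1 showed the largest tissue difference of the set, with 1 to 7 counts per SI library against 1889 to 2830 per colon library. It averaged 0.0902 ± 0.0471 CPM in WT SI and 33.7 ± 5.77 in WT colon (SD, n = 6), and 0.112 ± 0.0439 and 33.6 ± 5.82 in 9S/T-A. The log2 fold changes were 8.44 (SE 0.213, adjusted p = 7.68e-14 in edgeR) and 8.21 (SE 0.208, adjusted p = 1.11e-13 in edgeR), and with SI counts this low their exact size depends on the small prior count of the fit. The order of levels was colon above SI, with no order of genotypes shown in either tissue.

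Ly6a was higher in colon in both genotypes, with a fitted log2 change of 2.1 (SE 0.247, adjusted p = 2.29e-06 in edgeR) in WT and 2.35 (SE 0.34, adjusted p = 2.4e-05 in edgeR) in 9S/T-A. No SI library reached the lowest colon library, 10.2 CPM being the highest in SI and 11.5 the lowest in colon. The interferon list ran the other way, with 17 of 21 genes called lower in colon in WT and 12 lower and 1 higher in 9S/T-A. Its sums were 610 to 1195 CPM in SI and 179 to 524 in colon, while Ly6a was the higher in colon.

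Clu rose in WT colon to 1.61 ± 0.481 CPM from 0.888 ± 0.401 in WT SI, or a fitted log2 change of 0.83 (SE 0.289, adjusted p = 0.0196 in edgeR), with overlapping ranges. Without WT colon replicate 5, the highest at 2.36 CPM, the adjusted p was 0.0536. In 9S/T-A the value was 0.50 (SE 0.275, adjusted p = 0.131 in edgeR), and the adjusted p was 0.0184 without 9S/T-A SI replicate 2, the highest SI library of Clu at 1.76 CPM. Under plain totals Clu in 9S/T-A was at 1.29 (edgeR adjusted p = 0.00113), where the median of all genes was itself at 0.85.

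Msi1 fell most toward colon. It was read at 9.86 CPM or more in each SI library and at 3.4 CPM or less in each colon library. The means were 15.3 ± 2.27 and 11.8 ± 1.98 CPM in SI of WT and 9S/T-A, and 2.31 ± 0.82 and 2.3 ± 0.511 CPM in colon. The log2 fold change of colon over SI was -2.76 (SE 0.212, adjusted p = 1.93e-08 in edgeR) in WT and -2.38 (SE 0.166, adjusted p = 8.8e-09 in edgeR) in 9S/T-A. Msi1 stayed lower in colon when scaled by plain totals, at -2.04 and -1.58, and so was below the median of all genes under either scaling.

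Bmi1, Hopx, Prom1 and Mex3a had smaller tissue differences, and their sign depended on the scaling. Bmi1 was lower in colon at -0.71 (SE 0.121, adjusted p = 9.3e-05 in edgeR) in WT and -0.65 (SE 0.138, adjusted p = 0.000812 in edgeR) in 9S/T-A, and at 0.006 and 0.16 under plain totals. Hopx was at -0.35 (SE 0.0894, adjusted p = 0.00298 in edgeR) and -0.36 (SE 0.087, adjusted p = 0.00216 in edgeR), and at 0.36 and 0.44 under plain totals. Under plain totals the median over all genes was 0.74 in WT and 0.85 in 9S/T-A, above both genes.

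Prom1 was at -0.44 (SE 0.0903, adjusted p = 0.000516 in edgeR) in WT and -0.37 (SE 0.107, adjusted p = 0.008 in edgeR) in 9S/T-A, and at 0.27 and 0.43 under plain totals. Its 4 means fell from 209 CPM in WT SI over 163 in 9S/T-A SI and 157 in colon of WT to 129 in colon of 9S/T-A. Only WT SI, at 187 CPM or more, stood apart. The ranges of 9S/T-A SI (148 to 182 CPM), WT colon (135 to 179) and 9S/T-A colon (96.9 to 158) all overlapped each other. Mex3a was at -0.76 (SE 0.147, adjusted p = 0.000317 in edgeR) in WT and -0.32 (SE 0.167, adjusted p = 0.114 in edgeR) in 9S/T-A. Under plain totals the Mex3a values were -0.05 and 0.50, and the 9S/T-A value had an edgeR adjusted p of 0.0324 without 9S/T-A colon replicate 7 and of 0.0667 without number 7 in both tissues. WT SI had the most Mex3a, and the other 3 means, 2.46, 2.45 and 2.01 CPM, had overlapping ranges. Like Bmi1 and Hopx, Prom1 and Mex3a stood below the median of all genes by both scalings.

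The 8 genes had weak to moderate correlations with each other within groups. Over the 24 deviations from group means, Pearson r between pairs of them ran from -0.58 for Bmi1 and Msi1 to 0.45 for Ly6a and Prom1. Bmi1 was closest to Kbtbd7 (0.91) and Cd164 (0.89), and Hopx to Lsm4 (0.87), Park7 (0.86) and Get4 (0.85). Prom1 was closest to Golm1 (0.83), Prnp, the prion protein gene, (0.82) and Esrp1, an epithelial splicing regulator, (0.78). Mex3a was closest to Gm8113 (0.78), Myef2 (0.77) and Hdac6 (0.72), and Msi1 to Zfp516 (0.78), Dazap1 (0.73) and Pkmyt1 (0.72). Anxa1 was closest to Comtd1 (0.84), S100a16 (0.80) and Ly6g6e (0.80), its SI values being near 0. The weakest were those of Clu, with Nr4a1 at 0.66, Kifc3 at 0.65 and Tspan33 at 0.63. By Spearman's rho the closest gene was another one for 5 of the 8 genes, and a lower expression floor of 1 CPM changed the closest gene of 0 of them.

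Related genes gave a background for the set. Of 14 other genes tied to reserve or slowly cycling crypt cells, such as Lrig1 and Sox9, 0 were called by genotype in edgeR in SI or colon, with medians of -0.06 and 0.06. An unadjusted p under 0.05 was seen for 6 of them in SI and 1 in colon, and DESeq2 called 2 and 1. By tissue, 12 were called in WT, 3 higher and 9 lower in colon. They were led by Agr3 at -2.1 (SE 0.172, adjusted p = 3.96e-08 in edgeR), Krt15 at -1.76 and Prox1, a regulator of enteroendocrine precursors, at -1.64.

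Of other genes tied to fetal-like repair, 16 were tested by genotype in SI, 13 of them with positive values (median 0.32) and 0 called in edgeR, with 9 under an unadjusted p of 0.05 and 3 called in DESeq2. In colon 19 were tested (median 0.04), with 0 called in edgeR or DESeq2 and 1 under an unadjusted p of 0.05. By tissue, Anxa8, Gja1 and Il1rn joined Anxa1 in being nearly absent from SI. Il1rn, the interleukin 1 receptor antagonist, averaged 0.189 ± 0.0928 CPM in WT SI and 19.4 ± 3.61 in WT colon, or a fitted log2 change of 6.58 (SE 0.241, adjusted p = 3.27e-12 in edgeR). Anxa8 was at 7.77 and the connexin gene Gja1 at 7.28, values that depend on the prior count of the fit as for Anxa1. Over the 19 genes tested in WT, 7 were called higher and 9 lower in colon, and the list as a whole did not move one way.

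Between tissues in WT, 15 annexins and other paralogs of the set were tested and 13 were called in edgeR, beside 63.6% of all genes. Those called were 7 higher and 6 lower in colon. Anxa13 at -2.41 (SE 0.103, adjusted p = 1.93e-11 in edgeR) and Anxa4 at -2.23 (SE 0.102, adjusted p = 4.17e-11 in edgeR) were among the lower ones, opposite to Anxa1. Ly6g, another Ly6 gene, was at 6.06, from 0.0231 CPM in WT SI to 1.8 in WT colon. By genotype 1 of 15 paralogs tested in SI was called, Ly6e, higher in 9S/T-A at 0.66 (SE 0.142, adjusted p = 0.0274 in edgeR), with means of 296 ± 44.6 and 470 ± 110 CPM.

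Of 17 PRC1 genes that surround Bmi1, 2 were called higher in 9S/T-A SI, beside 1.94% of all genes called in either direction. The median log2 fold change of the 17 was 0.06, and both calls lay close to the threshold. Pcgf3, a paralog of Bmi1 in variant complexes, went from 108 ± 13.3 to 147 ± 18.8 CPM, or a fitted log2 change of 0.44 (SE 0.101, adjusted p = 0.0393 in edgeR). Cbx7, a chromobox reader of the repressive histone mark, was at 0.69 (SE 0.164, adjusted p = 0.0447 in edgeR). Of 15 Hippo pathway genes, 1 was called, Wwtr1, which encodes the YAP paralog TAZ, at 0.70 (SE 0.141, adjusted p = 0.0196 in edgeR). In colon 0 of these 17 and 0 of these 15 genes were called in edgeR, with 3 and 2 under an unadjusted p of 0.05 and 1 and 0 called in DESeq2.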

How the data were processed

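Cells were sorted by the authors as tdTom+ EpCAM+ from crypt preparations, and stranded mRNA libraries were read single-end. The deposited files hold raw counts per Ensembl gene, which the authors made with TopHat2 2.1.1 on GRCm38 and featureCounts (Subread 1.5.2) with the reverse strand setting. Counting used primary alignments, so reads shared by paralogs may be lost or misplaced, and reads in exons of overlapping genes of the same strand, as inside Prom1, may be dropped. The authors' notes also name DESeq2 1.14.1. Gene symbols were joined from GENCODE for GRCm38 for 98.15% of 45513 genes, and the file's exon length was used for CPM per kb.

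The quasi-likelihood test of edgeR 4.0.16 (R 4.3.3) was applied to the counts, two-sided, after its default low-count filter by group and TMM scaling. P-values were adjusted by Benjamini-Hochberg over all genes tested and called under 0.05. Fits were genotype within each tissue, tissue within each genotype and their interaction over 24 libraries. SE is the log2 fold change divided by the root of F. Printed CPM share 1 TMM scaling of all 24 libraries, so ratios of means differ slightly from the fitted folds. All 8 genes are named in every comparison. From the related lists the 3 called genes with the largest log2 fold change were eligible, with Atoh1, Muc2, Epcam and Lgr5 as checks and 3 genes of highest likeness per gene among protein-coding genes with a mean of at least 5 CPM, of which some are not reported here. Lyz2 was singled out, and left out of a leukocyte sum, after its values were seen. The genes and lists were chosen with earlier results of these data known.

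Same-numbered libraries of the 2 tissues deviated together, every one of 6 pairs correlating above 0.1 in WT (0.168 to 0.568) and in 9S/T-A (0.159 to 0.649). The mean was 0.289 in WT and 0.366 in 9S/T-A. Between genotypes, which are different mice, the mean was 0.412 in colon and 0.192 in SI. A number also had the same sex in every group, so these correlations do not show what a number marks. In the tissue comparisons, a fit with the number as a block changed no call among the 8 genes. Depth was 36 to 65.8 M counts, and counting error weighs most for Anxa1 in SI, which had the fewest counts. No pair of the 60 within groups was identical. On simulated counts with 200 genes changed 2-fold, the fit recovered 77% for genotype in SI, 75.5% for genotype in colon, 77.5% and 73.5% for tissue in WT and 9S/T-A, and 57% for the interaction. Alternatives were DESeq2 1.42.0, other scalings and filters, a replicate block, sex as covariate, all libraries in 1 fit, each library left out, numbers 2 (SI) and 7 (colon) left out in both genotypes, and, chosen after seeing the data, plain totals and leaving out number 7 throughout.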

Additional observations from a re-analysis of the deposited data

Results flagged for a closer look

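Of 32 sets of 6 libraries (8 genes in 4 groups), 1 held a library set apart from the rest of its group by Dixon's criterion, where chance flags about 1 set in 20. Bmi1 was read at 17.3 CPM in 9S/T-A SI replicate 6, and the other 5 libraries of that group lay between 11.1 and 13.4 CPM. The gap was 0.627 of the group's range, just over the critical value for 6 samples, and 17.3 CPM lies beside the highest WT SI library at 17.2 CPM. Without that library the log2 fold change of Bmi1 in SI was -0.24 (edgeR adjusted p = 0.338) in place of -0.13.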

How the results depend on the processing

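Genes called by genotype in SI, 315 in all, became 477 with a replicate block, 776 in DESeq2, 520 with all libraries in 1 fit, 779 without number 2 in both genotypes, and 188 to 550 with 1 library left out, the 550 being without 9S/T-A SI replicate 2. The 2 calls among the 8 genes became 1 with sex as a covariate (Prom1, with Mex3a at edgeR adjusted p = 0.0508), 0 without number 7 and 0 to 2 with 1 library left out. In colon, 54 genes became 90 without a low-count filter, 385 with the block, 89 with sex, 248 in DESeq2, 103 in 1 fit and 30 to 72 with 1 left out. Calls among the 8 went from 0 to 1 with the block (Prom1, -0.28, edgeR adjusted p = 0.0452), to 1 in DESeq2 (Ly6a) and 0 to 1 with 1 left out. The interaction gave 74 calls, 342 with the block, 255 in DESeq2, 43 without number 7 and 50 to 112 with 1 left out. The labels do not say what a number marks, and the pairs of a number correlated above 0.1 in 4 of 6 cases between genotypes in SI and 5 of 6 in colon, so these blocked values are given here only. In tissue comparisons 7 to 8 of the 8 were called in WT and 6 to 7 in 9S/T-A with 1 left out, and the block changed no call. Signs turned, as log2 fold changes, for Hopx in SI at -0.0011 (upper quartile), -0.05 (without number 2) and -0.10 (plain totals), with -0.019 to 0.073 when 1 library was left out. In colon they turned for Hopx at -0.023, Anxa1 at -0.029 and Msi1 at -0.031 (plain totals), and for Anxa1 at -0.005 and Msi1 at -0.0008 (1 fit). With 1 library left out in colon, Hopx ran from -0.02 to 0.057, Anxa1 from -0.068 to 0.10, Msi1 from -0.12 to 0.15 and Bmi1 from -0.12 to 0.018, and in SI Clu ran from -0.10 to 0.37. Plain totals turned the tissue values of Bmi1 (0.006, 0.16), Hopx (0.36, 0.44) and Prom1 (0.27, 0.43) in WT and 9S/T-A, and of Mex3a in 9S/T-A (0.50), because they move all genes alike. The interaction of Hopx turned at 0.0088 (upper quartile), 0.0066 (no filter), 0.0028 (mean of at least 10 counts) and 0.078 (plain totals), and ran from -0.065 to 0.038 with 1 left out, and that of Bmi1 from -0.008 to 0.18. Apart from the scalings named, the cause of these changes was not tested. Depth limits Anxa1 in SI and, less so, Clu and Mex3a.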

Other observations

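Secretory and absorptive marker lists describe the pool in which the 8 genes were read. Of 14 enteroendocrine markers 13 were negative in 9S/T-A SI against WT SI (median -0.82), 10 had an unadjusted p under 0.05, 6 were called in DESeq2, 6 were called lower and 1 higher with the number as a block, and 2 were called in edgeR without it, Gcg (glucagon) lower at -2.65 (SE 0.301, edgeR adjusted p = 0.000227) and Sct (secretin) higher at 1.14 (SE 0.127, edgeR adjusted p = 0.000198), while the summed list ran from 287 to 603 CPM in WT and 316 to 619 in 9S/T-A. Of 12 goblet markers 10 were positive in each tissue (medians 0.27 in SI and 0.25 in colon), 0 called in SI and 1 in colon, Spink4 at 0.68 (SE 0.122, edgeR adjusted p = 0.0287). The Paneth gene Mptx2 fell from 1126 ± 265 CPM in WT SI to 45.3 ± 25 in 9S/T-A SI (SD, n = 6), at -4.64 on the log2 scale (SE 0.328, adjusted p = 1.69e-06 in edgeR), and in colon it was read at 465 ± 156 and 623 ± 134.

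Cell cycle genes ran in opposite directions by tissue, 15 of 15 with a negative genotype value in SI and 15 of 15 with a positive one in colon, and the interaction had 15 of 15 positive, with 14 at an unadjusted p under 0.05, 0 called in edgeR, 6 called higher with the number as a block and 2 called in DESeq2. Absorptive markers (11 of 14 positive in SI, 8 of 14 in colon) and epithelial identity genes (6 of 8 positive in each tissue) had 0 calls in edgeR in either tissue, with 3, 1, 2 and 0 under an unadjusted p of 0.05 and 2, 0, 1 and 0 called in DESeq2, in that order. Among stroma and endothelium markers in SI, Sparc was higher in 9S/T-A at 2.47 (2.15 ± 1.14 CPM) and Vim lower at -1.3 (4.37 ± 1.78 CPM).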
